A study of Mus musculus with 12 samples.

Results

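The genes described here are 45 mouse genes of the interferon response and of antigen presentation by MHC class I. They were chosen by name, with earlier results of these data known: each is a row of the deposited table whose transcript ID carries a listed symbol in the GENCODE annotation of GRCm38, and no measured threshold entered the choice. All 45 were found among the 22467 transcripts of the table. By role they comprised 4 receptors, 8 kinases and transcription factors, 7 sensors of RNA and DNA, 19 interferon-induced effectors and 7 antigen presentation genes. The study harvested whole mouse embryos at E8.5, 3 of them wild-type (Rpl10a +/+) and 3 homozygous for the LOF allele (Rpl10a LOF/LOF), and names no treatment that set the groups apart. Embryos were dissected and lysed in the presence of cycloheximide, a drug that freezes translating ribosomes on the message. Each embryo was lysed on its own and gave an RPF library, made from ribosome-protected fragments by ribosome profiling, and an RNA library made by RNA-seq. The LOF allele is a CRISPR-made germline deletion within the first intron of Rpl10a. It leaves intron sequence in the message and places extra amino acids behind the first methionine of RPL10A/uL1, a protein of the large ribosomal subunit, so every cell of a homozygous embryo carries the extended protein and no wild-type copy.

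Interferons are secreted proteins released by cells that sense viral nucleic acid. Type I interferons bind the IFNAR1 and IFNAR2 receptor pair, interferon gamma binds IFNGR1 and IFNGR2, and both act through JAK kinases and STAT factors, with IRF9 bringing STAT dimers to a DNA element, the interferon-stimulated response element (ISRE). The induced genes block viral RNA and entry into cells, modify proteins with ISG15, and raise the display of peptides on MHC class I, which is held at a low level in early embryos.

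RPF libraries held 7041357 to 10863499 counts and RNA libraries 9132521 to 26561843. The 45 members took 0.084% to 0.0933% of the RPF counts and 0.0791% to 0.083% of the RNA counts. Rpl10a itself, the targeted gene, was lower in every Rpl10a LOF/LOF embryo than in every wild-type embryo in both layers, by 0.64 on the log2 scale for RPF (FDR 0.0069, edgeR) and by 0.23 for RNA (FDR 0.068). All 12 markers fixed for the E8.5 embryo proper passed the filter on low counts. Summed levels (CPM, reads scaled to a library of fixed size by TMM) of 4 Y-linked genes were 153 to 189 in the libraries of the 3 wild-type embryos and of LOF/LOF embryo 2, 9.33 and 8.72 in those of LOF/LOF embryo 1, and 0.380 and 2.57 in those of LOF/LOF embryo 3. Genotype and the presence of a Y chromosome therefore overlapped in all but 1 embryo, and their parts in any difference below cannot be told apart except through LOF/LOF embryo 2. Visceral endoderm markers were lower in Rpl10a LOF/LOF embryos, with 7 of 10 called in RPF and 10 of 10 in RNA, and primitive red cell markers were higher, with 4 of 8 called in RPF and 1 of 8 in RNA. These are bulk samples, so fewer cells of a type and less RNA per cell cannot be told apart.

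The core of the ISRE is the sequence class through which IRF9 and its relatives act, so GAAA, any 2 bases and GAAA again was looked for on either strand of the promoters, from 250 bases before to 50 bases after each annotated start (RefSeq, GRCm38.p6). Of the 45 members, 38 had such a window, and 13 of these (34.2%) held at least 1 match, against 3.99% of the 27025 genes and 3.44% of the 32851 windows with a RefSeq entry. No receptor promoter of 4 held a match. Matches were present for 2 of 8 kinases and transcription factors, 3 of 5 sensors, 7 of 16 effectors and 1 of 5 antigen presentation genes. No entry was used for Dhx58, Nlrc5, Parp14, Parp9, Tap2, Usp18 or Zbp1. The lines below show 1 match from each role that had any, and 3 from the effectors, each in 30 bases on the strand of the gene, with the match in capitals and its offset from the start site, which counts as 0. TTTC, 2 bases and TTTC is the same core on the opposite strand, and matches can overlap, as 3 do in Isg15 and 2 in Bst2.
Isg15, chr4:156200871-156200900, minus strand, offset -72: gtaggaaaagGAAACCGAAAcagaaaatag
Rsad2, chr12:26456553-26456582, minus strand, offset -120: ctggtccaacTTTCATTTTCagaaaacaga
Ifit1, chr19:34640794-34640823, plus strand, offset -85: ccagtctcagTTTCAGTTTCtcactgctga
Ddx58, chr4:40239804-40239833, minus strand, offset 2: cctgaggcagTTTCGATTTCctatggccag
Stat2, chr10:128270266-128270295, plus strand, offset -222: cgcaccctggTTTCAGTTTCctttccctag
B2m, chr2:122147538-122147567, plus strand, offset -139: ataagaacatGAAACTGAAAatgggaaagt
A match is a description of these letters and not a bound site. Isg15, Rsad2 and Ifit1 are classical induced genes, while Tap1, the member with the lowest FDR in the comparison of genotypes, had no match in its window.

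The members spanned most of the range of wild-type expression. For comparison between genes, levels are given as CPM per kb, of coding sequence for RPF and of the whole transcript for RNA, and placed as percentiles among the tested transcripts. The highest were Ifitm2 and Ifitm1, membrane proteins that restrict viral entry, at 238.6 and 172.5 RPF CPM per kb (the 94.2nd and 92.0th percentile). B2m, the light chain of MHC class I, stood at 112.8 RPF CPM per kb (88.3rd percentile) and Samhd1, a dNTP hydrolase that limits retroviruses, at 106.9 (87.7th). Reads shared among Ifitm1, Ifitm2 and Ifitm3, which are close relatives, may have been split between them, so their single levels are uncertain. At the other end, the peptide transporter subunits Tap1 and Tap2 stood at 0.729 and 0.646 RPF CPM per kb (4.58th and 3.86th percentile), Rsad2 at 0.460 (2.04th) and Parp14 at 0.262 (0.652nd). Of the 37 members that passed the filter, 18 (48.6%) lay below the 25th percentile of RPF density and 4 above the 75th.

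**Figure D1:**
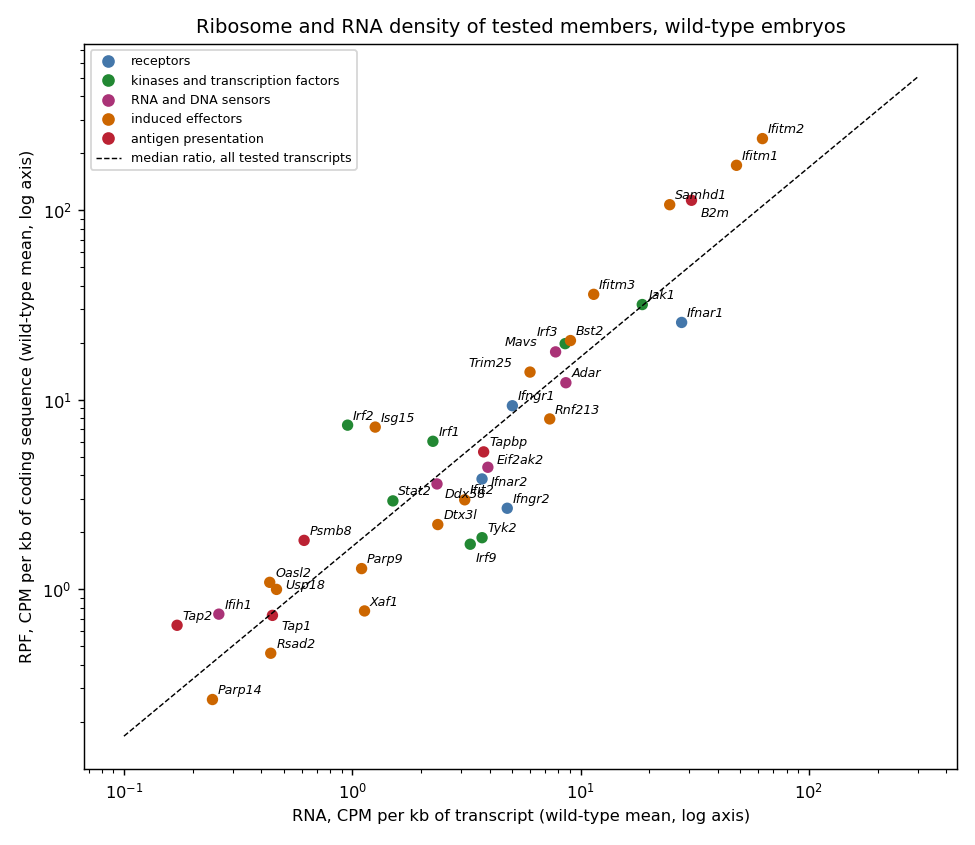
RPF density against RNA density of the 37 tested members, each the mean of 3 wild-type embryos in CPM per kb on log axes, colored by role. The dashed line is the median ratio of all tested transcripts (0.75 on the log2 scale), and Irf2 and Isg15 lie farthest above it while Tyk2, Irf9 and Ifngr2 lie farthest below.

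The ratio of RPF density to RNA density in wild-type embryos, a measure of ribosome load per message, differed more among the members than between embryos for those with ample counts. Over all 12570 tested transcripts with a length the median log2 ratio was 0.75. Irf2, an IRF family member that opposes IRF1, had log2 ratios of 2.94, 2.73 and 3.26 in the 3 wild-type embryos, and its mean stood at the 98.5th percentile. Isg15, the ubiquitin-like modifier, had 2.64, 2.09 and 2.86 (96.9th percentile). For both genes every wild-type embryo lay well above the median of all transcripts. Samhd1 followed at 2.27, 2.01 and 2.09 (93.3rd percentile), and Ifitm2 and Tap2 came next at the 90.5th and 90.3rd percentile, ahead of B2m at 1.81, 1.95 and 1.89 (89.5th). The lowest tested members were Tyk2, a JAK family kinase of the type I receptor, at -1.16, -0.97 and -0.81 (7.47th percentile), and Irf9 at -0.85, -0.83 and -1.12 (8.19th). Ifngr2 had -1.04, -0.74 and -0.72 (9.31st percentile) against 0.94, 0.89 and 0.83 for its partner Ifngr1 (55.4th), so that the interferon gamma receptor chains differed in this ratio in every wild-type embryo. The chains of the type I receptor were closer, with -0.18, -0.19 and 0.02 for Ifnar1 and 0.24, -0.15 and 0.05 for Ifnar2, and their values overlapped. RNA reads were counted over 1 annotated transcript per gene, so a message with another 3'UTR would shift this ratio, and this was not tested.

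Differences between Rpl10a LOF/LOF and wild-type embryos were tested in edgeR by quasi-likelihood over all transcripts that passed the filter, calling an FDR below 0.1. In RPF, 1 of the 37 tested members was called, against 2.19% of all tested transcripts. It was higher in Rpl10a LOF/LOF embryos, as were 1.05% of all transcripts, and 0 members were called lower against 1.15%. In RNA, 2 of 37 were called, against 5.02%, both of them higher (1.77% of all transcripts) and 0 lower (3.25%). In RPF/RNA, the change in RPF beyond that in RNA, 0 of 37 were called and 0% of all transcripts. At an unadjusted p under 0.05 the members numbered 3 in RPF, 9 in RNA and 1 in RPF/RNA, where the shares of all transcripts were 13.7%, 17% and 4.44%, and DESeq2 also called 0 members in RPF/RNA. Those members were 2 higher and 1 lower in RPF (7.12% and 6.61% of all transcripts), 3 higher and 6 lower in RNA (7.44% and 9.6%), and 1 higher in RPF/RNA (2.48%). The called members were Tap1 in RPF, and Tap1 and Rsad2 in RNA. These 2 genes were also the only members whose 3 Rpl10a LOF/LOF embryos all lay above the 3 wild-type embryos in RPF (9.92% of all transcripts) or in RNA (10.2%), and they did so in both (3.06%), while 1 member, Trim25, lay below in RPF (9.45%). Rsad2 was the 1 member of 37 that passed the filter on RPF levels through the Rpl10a LOF/LOF libraries alone, so its separation in RPF was set by the filter. Among the members higher in RPF, only Tap1 can therefore be set against the shares of all transcripts, also at an unadjusted p under 0.05. The RNA of Rsad2 came from the same embryos, whose RPF and RNA deviated together, so its RNA call was not free of that filter. The median log2 change of the members was 0.11 in RPF and -0.10 in RNA, where it was 0.00 in each for all tested transcripts. For 30 members in RPF and 29 in RNA the whole 95% interval of the log2 change lay between -1 and 1.

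**Figure D2:**
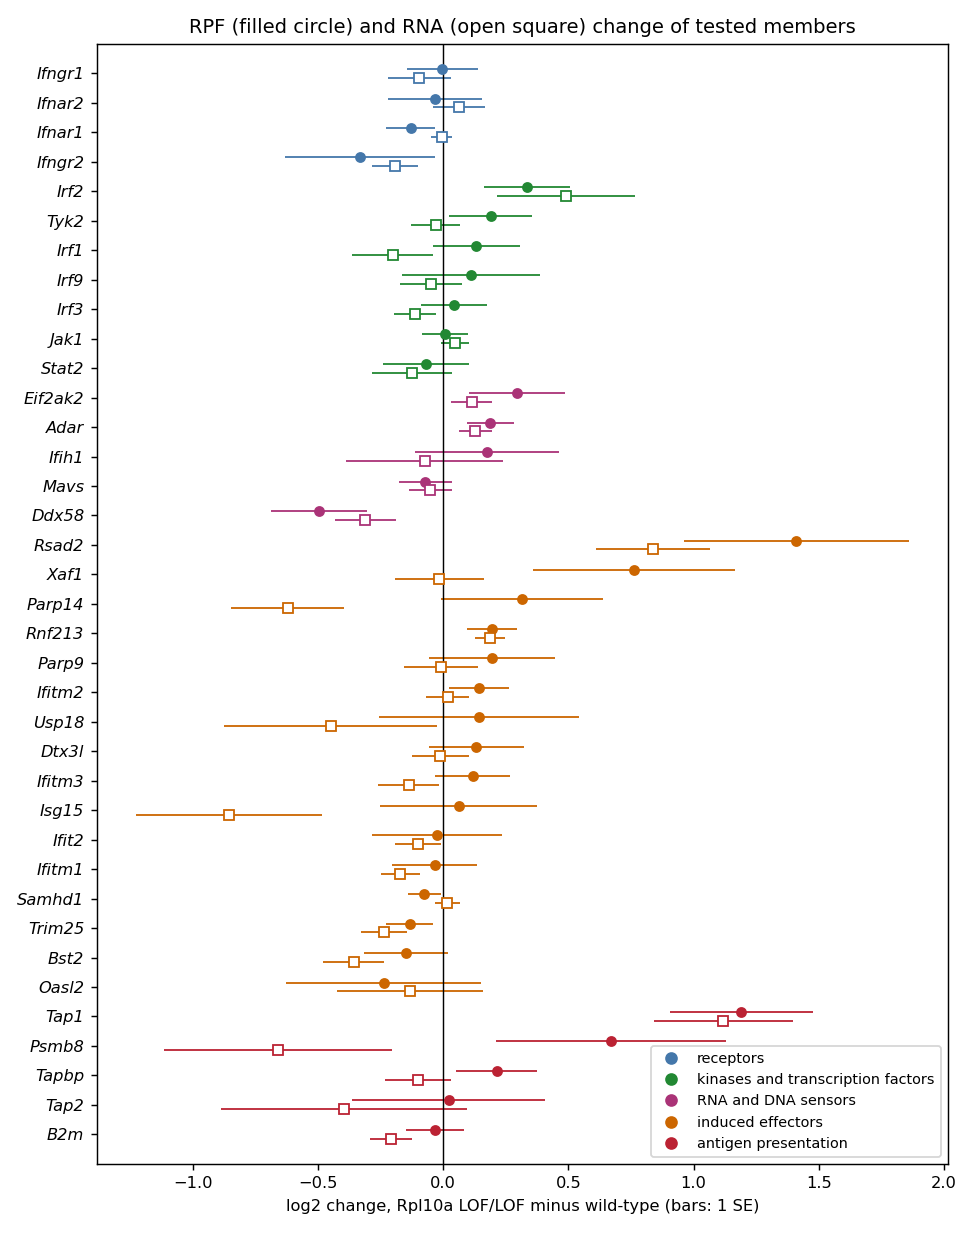
Log2 change of the 37 tested members, Rpl10a LOF/LOF minus wild-type, in RPF (filled circles) and RNA (open squares) with 1 standard error, grouped by role. Tap1 and Rsad2 stand apart to the right in both layers, the 4 receptors lie at or below 0 in RPF, and 27 of the 37 RNA values lie below 0. Rsad2 passed the filter through the Rpl10a LOF/LOF libraries alone.

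None of the 4 receptor genes was called in any layer, and none had an unadjusted p under 0.05. Ifnar1, the receptor chain that binds TYK2, had RPF levels of 42.3, 41.8 and 47.3 CPM in wild-type and 37.3, 44.5 and 38.2 in Rpl10a LOF/LOF embryos. The groups overlapped, with a log2 change of -0.13 ± 0.10 (SE) in RPF and -0.01 ± 0.04 in RNA. Ifnar2, which binds type I interferon with it, had 6.40, 5.38 and 5.21 RPF CPM in wild-type and 5.98, 6.28 and 4.57 in Rpl10a LOF/LOF embryos (log2 change -0.03 ± 0.19). For Ifngr1, the ligand-binding chain for interferon gamma, RPF levels were 13.6, 11.6 and 13.1 CPM against 11.1, 14.8 and 12.4, and the groups overlapped again (log2 change 0.00 ± 0.14). Ifngr2 was the receptor with the largest fitted value in RNA, -0.19 ± 0.09, where its 3 Rpl10a LOF/LOF embryos lay below its 3 wild-type embryos (FDR 0.33). All 4 intervals stayed between -1 and 1 in every layer.

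Among the kinases and transcription factors 7 of 8 members were tested, and none was called or had an unadjusted p under 0.05. Jak1, the kinase shared by the type I and gamma receptors, had the highest RPF density of them, 31.8 CPM per kb of coding sequence. Its RPF CPM was 109.3, 105.5 and 109.7 in wild-type and 94.3, 108.8 and 122.2 in Rpl10a LOF/LOF embryos. Its log2 change was 0.01 ± 0.09 in RPF and 0.05 ± 0.06 in RNA. Irf3, the factor that sensors activate to induce interferon, had 24.96, 25.05 and 21.16 RPF CPM in wild-type and 23.47, 20.95 and 28.53 in Rpl10a LOF/LOF embryos (log2 change 0.04 ± 0.13). Stat2, the partner of IRF9 on the ISRE, had 6.58, 8.78 and 8.44 against 6.56, 7.33 and 8.46 (log2 change -0.07 ± 0.17). Levels of these 3 genes overlapped between genotypes in both layers. Irf2 had the largest fitted change of the group, 0.33 ± 0.17 in RPF (FDR 0.43) and 0.49 ± 0.28 in RNA (FDR 0.42), from 65 to 75 RPF counts per wild-type library and 63 to 107 per Rpl10a LOF/LOF library.

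Of the sensors of RNA and DNA, 5 of 7 members were tested and none was called. Ddx58, which encodes the RNA sensor RIG-I, had 10.2, 11.8 and 7.40 RPF CPM in wild-type and 6.27, 6.40 and 7.89 in Rpl10a LOF/LOF embryos. Its lowest wild-type embryo lay under the highest Rpl10a LOF/LOF embryo. The log2 change for RPF was -0.50 ± 0.19 (FDR 0.28) and that for RNA was -0.31 ± 0.12 (FDR 0.22), with an unadjusted p under 0.05 in both layers that did not pass the adjustment. Mavs, the mitochondrial adaptor downstream of RIG-I and of MDA5, the product of Ifih1, had 26.8, 26.5 and 24.7 RPF CPM against 27.6, 23.5 and 23.4 (log2 change -0.07 ± 0.11). Adar, which edits double-stranded RNA and so keeps it from the sensors, had 31.5, 36.2 and 33.2 against 39.2, 35.5 and 39.9. Only LOF/LOF embryo 2 fell within the wild-type range of Adar, and the log2 change for RPF was 0.19 ± 0.09 (FDR 0.42) and that for RNA was 0.13 ± 0.07 (FDR 0.37). Eif2ak2, the kinase PKR, had a log2 change of 0.29 ± 0.19 in RPF, and Ifih1 of 0.18 ± 0.29, with 15 to 30 counts per RPF library.

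The interferon-induced effectors were the largest group, with 16 of 19 members tested. In RPF 0 were called, with 10 fitted values above 0 and 6 below, and in RNA 1 was called, with 4 above and 12 below. Rsad2, which encodes the antiviral enzyme viperin, was the called gene. It was counted 5, 2 and 7 times in the wild-type RPF libraries and 8, 8 and 18 times in the Rpl10a LOF/LOF libraries. In RNA it was counted 9, 47 and 45 times in wild-type and 57, 65 and 32 times in Rpl10a LOF/LOF libraries of unequal depth. As CPM these RNA levels were 1.02, 1.80 and 2.17 in wild-type and 2.92, 3.27 and 3.43 in Rpl10a LOF/LOF embryos, so all 3 Rpl10a LOF/LOF embryos lay above all 3 wild-type embryos. In RPF its 3 wild-type libraries lay under the filter level of 0.75 CPM and its 3 Rpl10a LOF/LOF libraries over it, so it could be tested only because the groups differed there, and its RPF change is given as a description. Its RNA came from the same embryos, whose RPF and RNA deviated together, so the RNA call was not free of that filter. Fitted without the filter, its RNA log2 change was 0.86 (FDR 0.057, edgeR). The log2 change for RNA was 0.84 ± 0.23 (FDR 0.091) and that for RPF was 1.41 ± 0.45 (FDR 0.19). The RNA call was lost with DESeq2 (log2 change 0.88, FDR 0.16), with surrogate variables (0.81, FDR 0.13), with the Y-linked covariate (0.84, FDR 0.45) and without any single embryo other than wild-type embryo 3 (0.69 to 0.90, FDR 0.13 to 0.20).

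Bst2, Trim25 and Parp14 were lower in RNA in all 3 Rpl10a LOF/LOF embryos than in any wild-type embryo, with unadjusted p under 0.05 and no FDR under 0.1. Bst2, or tetherin, which holds budding virus at the cell surface, had 7.68, 6.95 and 6.84 RNA CPM in wild-type and 5.18, 5.99 and 5.36 in Rpl10a LOF/LOF embryos (log2 change -0.36 ± 0.12, FDR 0.17). In RPF the embryos of Bst2 overlapped, at 9.69, 9.72 and 8.86 against 10.5, 6.87 and 8.37. Trim25, the ubiquitin ligase that activates RIG-I, had 35.4, 33.5 and 31.9 RNA CPM against 25.1, 30.8 and 29.5 (log2 change -0.24 ± 0.09, FDR 0.22). Its RPF levels did not overlap either, at 25.2, 26.2 and 26.1 against 23.9, 23.2 and 23.6 (log2 change -0.13 ± 0.09, FDR 0.58). Parp14, a mono-ADP-ribosyltransferase, had 15, 51 and 37 RNA counts in wild-type and 27, 20 and 11 in Rpl10a LOF/LOF libraries, which as CPM were 1.69, 1.96 and 1.78 against 1.39, 1.01 and 1.18 (log2 change -0.62 ± 0.23, FDR 0.20). Its RPF counts of 11, 17 and 12 against 11, 13 and 21 overlapped as CPM and gave a fitted value of the opposite sign (log2 change 0.31 ± 0.33, FDR 0.73). Across all tested transcripts, 12.6% were lower without overlap in RNA, and among the 37 members 5 were: these 3, Ifngr2 and B2m.

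Samhd1, Rnf213 and Ifitm2 had the most RPF reads of the effectors, a measure of precision and not of level per length, and none was called. Samhd1 had 214.6, 197.5 and 202.6 RPF CPM in wild-type and 196.3, 184.3 and 203.0 in Rpl10a LOF/LOF embryos, with overlap (log2 change -0.08 ± 0.07, 95% interval -0.22 to 0.07). Rnf213, a giant ubiquitin ligase of vessels and of antibacterial defense, had 116.6, 127.8 and 121.8 against 153.0, 116.4 and 149.9. Its Rpl10a LOF/LOF embryos 1 and 3 lay above the wild-type range and embryo 2 just below it, and the log2 change for RPF was 0.20 ± 0.10 (FDR 0.43) and that for RNA was 0.19 ± 0.06 (FDR 0.15). Ifitm2 had 90.8, 93.9 and 83.8 against 121.4, 93.3 and 82.8 (log2 change 0.14 ± 0.12). Ifitm1, second in RPF density, had log2 changes of -0.03 ± 0.17 in RPF and -0.17 ± 0.08 in RNA (FDR 0.30). Isg15 was counted 26, 26 and 36 times in wild-type RPF libraries and 15, 20 and 49 times in Rpl10a LOF/LOF RPF libraries, where its log2 change was 0.06 ± 0.31. Its RNA counts of 6, 33 and 19 against 11, 8 and 8 gave -0.86 ± 0.37 (FDR 0.28), with overlap between the embryos. Ifit2, Dtx3l and Parp9 had fitted values between -0.10 and 0.19 in both layers.

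Among the antigen presentation genes 5 of 7 members were tested. Tap1, a subunit of the transporter that carries peptides into the endoplasmic reticulum for loading on MHC class I, was the only member called in RPF and was called in RNA as well. Its RPF counts were 17, 12 and 16 in wild-type and 34, 23 and 34 in Rpl10a LOF/LOF libraries. As CPM these were 1.55, 1.41 and 1.67 in wild-type and 4.96, 2.68 and 3.23 in Rpl10a LOF/LOF embryos, with no overlap and with the highest value in LOF/LOF embryo 1. Its RNA counts were 12, 24 and 35 in wild-type and 69, 46 and 23 in Rpl10a LOF/LOF libraries, or 1.35, 0.921 and 1.69 CPM against 3.54, 2.32 and 2.47, again without overlap. The RPF level was 2.28-fold higher in Rpl10a LOF/LOF embryos (log2 change 1.19 ± 0.29, 95% interval 0.56 to 1.82, FDR 0.087), and the RNA level was 2.17-fold higher (log2 change 1.12 ± 0.28, 95% interval 0.50 to 1.74, FDR 0.068). The change in RPF/RNA was 0.08 ± 0.43. LOF/LOF embryo 2, the one with Y-linked counts like the wild-type, had Tap1 above every wild-type embryo in both layers. With a Y-linked covariate the fitted values were 0.97 in RPF (FDR 0.60) and 0.96 in RNA (FDR 0.49). The RPF call was also lost with DESeq2 (log2 change 1.21, FDR 0.15) and without any single embryo other than LOF/LOF embryo 2 (0.93 to 1.26, FDR 0.15 to 0.34), and the RNA call without wild-type embryos 1 or 2 or LOF/LOF embryos 1 or 3 (0.84 to 1.18, FDR 0.11 to 0.19).

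No other tested member near Tap1 in the MHC region of chromosome 17 was called. Psmb9, an immunoproteasome subunit whose start site lies 211 bp from that of Tap1 on the opposite strand, was counted 2 to 12 times per RPF library and 4 to 14 times per RNA library, and its RNA CPM was 0.564, 0.537 and 0.675 in wild-type and 0.205, 0.201 and 0.429 in Rpl10a LOF/LOF embryos. These RNA values were lower in Rpl10a LOF/LOF embryos without overlap, but the gene did not pass the filter. Psmb8, another immunoproteasome subunit, had 9, 19 and 11 RPF counts against 13, 9 and 35 (log2 change 0.67 ± 0.46 in RPF and -0.66 ± 0.46 in RNA). Tap2, the partner subunit of TAP1, had 14, 15 and 9 RPF counts against 5, 10 and 20 (log2 change 0.02 ± 0.39), and the interval of its change, -0.83 to 0.87, reached above the lower bound of the Tap1 interval. A difference between Tap1 and these genes was not tested.

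B2m, which every MHC class I molecule needs at the surface, had 32.5, 33.1 and 35.9 RPF CPM in wild-type and 36.4, 27.5 and 35.4 in Rpl10a LOF/LOF embryos (log2 change -0.03 ± 0.12). In RNA it had 26.64, 24.56 and 27.81 against 23.70, 21.20 and 23.48, lower in all 3 Rpl10a LOF/LOF embryos (log2 change -0.21 ± 0.08, FDR 0.24). Tapbp, or tapasin, which bridges MHC class I and the transporter, had 6.31, 8.08 and 6.98 RPF CPM against 8.45, 7.22 and 8.94, with overlap (log2 change 0.21 ± 0.16).

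**Figure D3:**
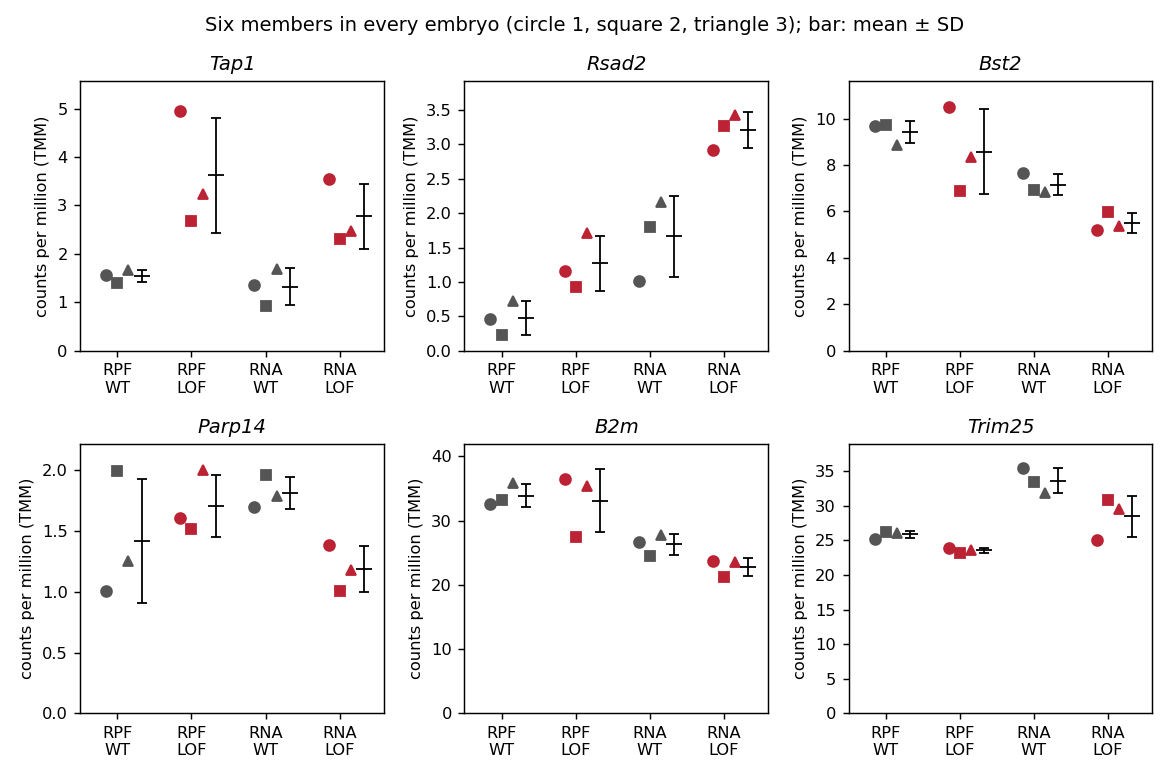
TMM-normalized CPM of 6 members in every embryo, with RPF and RNA side by side, wild-type in gray and Rpl10a LOF/LOF in red, and mean ± SD (n = 3) beside the points on axes that start at 0. Tap1 and Rsad2 are separated upward in both layers, whereas Bst2, Parp14 and B2m are separated downward in RNA and overlap in RPF, and Trim25 is separated downward in both. The separation of Rsad2 in RPF was set by the filter.

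Values of cell type markers moved with the genotype beside these results. Primitive red cell markers summed to 1386, 838.5 and 2822 RPF CPM in wild-type and 3559, 5797 and 3520 in Rpl10a LOF/LOF embryos, so that LOF/LOF embryo 2 was the highest for red cell markers and the lowest of the Rpl10a LOF/LOF embryos for Tap1 in both layers. Visceral endoderm markers summed to 8484, 7537 and 6445 RPF CPM in wild-type and 3273, 4877 and 2321 in Rpl10a LOF/LOF embryos. White blood cell markers, 8 of 12 tested and 0 called, summed to 17.2 to 25.1 RPF CPM in wild-type and 20.6 to 27.3 in Rpl10a LOF/LOF embryos. Their fitted RPF changes were above 0 for 7 of 8, with a median of 0.29, and Lyz2, a lysozyme of myeloid cells, was counted 3, 12 and 9 times in wild-type and 9, 28 and 17 times in Rpl10a LOF/LOF RPF libraries (log2 change 1.31 ± 0.50, FDR 0.28, edgeR), with overlap. On the same list, Ptprc, the pan-leukocyte CD45 gene, was counted 18 to 49 times per RPF library, and the macrophage and microglia genes Adgre1, Cx3cr1 and Fcgr1, which did not pass the filter, 0 to 13 times, each with 0 in 1 RPF library. By CPM the Rpl10a LOF/LOF embryos lay above the wild-type embryos without overlap for Fcgr1 in RPF and for Adgre1 and Cx3cr1 in RNA. Of the 8 tested markers 0 did so in either layer, where 9.92% of all tested transcripts did in RPF and 10.2% in RNA. In RNA the fitted changes of the 8 were above 0 for 4 and below for 4, with a median of 0.02. Decidua and trophoblast markers summed to 136.8 to 305.4 RPF CPM in wild-type and 92.5 to 342.2 in Rpl10a LOF/LOF embryos. The part of any of these in the values of Tap1, Rsad2 and B2m was not tested.

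The 8 members outside the filter were Irf7, Dhx58, Zbp1, Ifit1, Ifit3, Isg20, Psmb9 and Nlrc5, which include several of the genes that respond most to interferon in adult cells. Together they had 19 to 82 counts per RPF library and 38 to 143 per RNA library. Ifit3 was counted 0 times in 5 RPF libraries and 1 time in that of LOF/LOF embryo 3, and 1 to 5 times in each RNA library. Irf7, the factor that amplifies type I interferon, had 6, 6 and 2 RPF counts in wild-type and 7, 4 and 14 in Rpl10a LOF/LOF libraries. Dhx58, the sensor LGP2, had 2, 6 and 4 against 4, 3 and 21, and Isg20, an exonuclease, 5, 6 and 3 against 4, 6 and 17. Ifit1 had 6, 7 and 6 against 3, 2 and 12. In these 4 genes LOF/LOF embryo 3 was the highest of the 6 by CPM, and the genotypes overlapped. Zbp1 had 0 to 5 counts and Nlrc5, the transactivator of MHC class I, 0 to 3 counts per RPF library. When all 22122 transcripts with counts were fitted without the filter, 0 of these 8 were called in RPF or RNA (edgeR), against 1.79% and 3.41% of those transcripts, and the lowest unadjusted p were 0.049 in RPF and 0.021 in RNA. Of the interferons themselves, 3 of the 21 listed ligand genes were in the table. Ifna2 was counted 0 times in every RPF library and Ifna16 likewise, which allows up to 3 counts each per library, and Ifne, the epithelial interferon, was counted 0 to 4 times.

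Across the tested members RPF and RNA leaned in different directions. Fitted changes were above 0 for 23 of 37 in RPF (62.2%, against 50.9% of all tested transcripts) and for 10 of 37 in RNA (27%, against 49.4%). In RPF/RNA 28 of 37 were above 0 (75.7%, against 52%), with a median of 0.14 against 0.01. The lean in RPF turned with the Y-linked covariate, under which 14 members lay above 0 and 23 below (median -0.06), and its median was 0.03 with surrogate variables, 0.05 without wild-type embryo 3, 0.06 without LOF/LOF embryo 1 and 0.18 without LOF/LOF embryo 2. The median in RPF/RNA fell to 0.03 with the Y-linked covariate (23 of 37 above 0), to 0.03 with surrogate variables (22 of 37) and to 0.05 without LOF/LOF embryo 1 (25 of 37), was 0.09 without wild-type embryo 3, and was 0.24 without LOF/LOF embryo 2 (30 of 37). In RNA the median was -0.10, and it was -0.06 without wild-type embryo 2, -0.04 without wild-type embryo 3 and -0.05 without LOF/LOF embryo 2. By role, RPF/RNA lay above 0 for 1 of 4 receptors, 5 of 7 kinases and transcription factors, 3 of 5 sensors, 14 of 16 effectors and 5 of 5 antigen presentation genes. Parp14 had the only unadjusted p under 0.05 in RPF/RNA, with a log2 change of 0.94 ± 0.38 (FDR 1, edgeR), followed in size by Isg15 at 0.91 ± 0.52 and exceeded by Psmb8 at 1.32 ± 0.72. The lean was larger among members with few counts. Divided at a mean of 5 RPF CPM, a level chosen after the values were seen, the 14 weaker members had a median RPF/RNA change of 0.33 and the 23 stronger ones 0.10, whereas the median over all 2938 tested transcripts under 5 RPF CPM was 0.06. No list-wide test was made, because the genes were named with results of these data known.

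**Figure D4:**
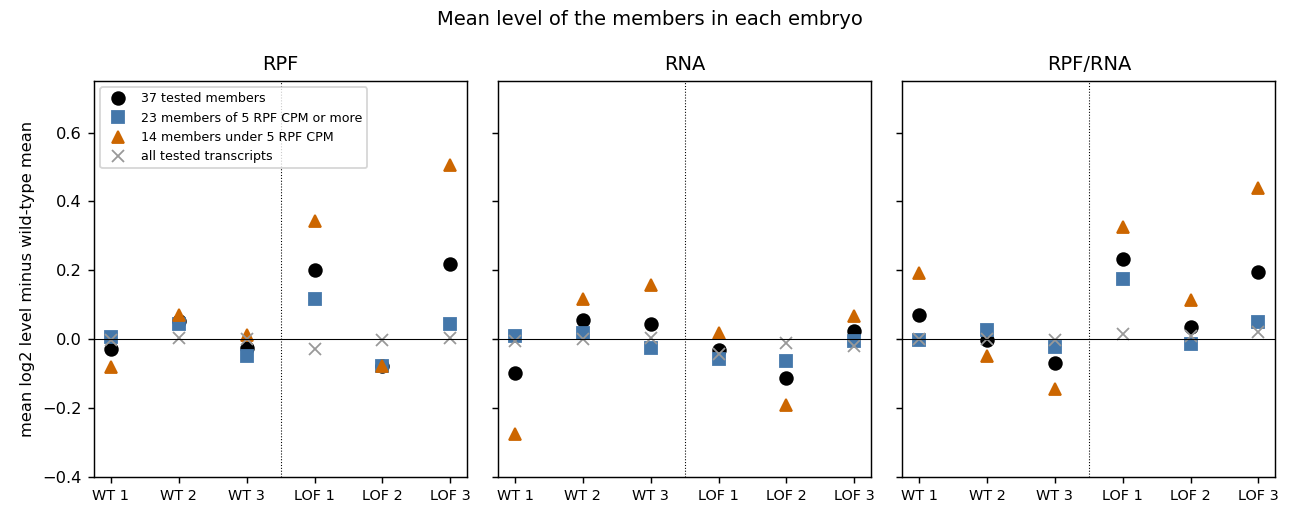
Mean log2 level of the 37 tested members in each embryo, relative to the mean of the 3 wild-type embryos, in RPF, RNA and RPF/RNA (pseudocount 0.1 CPM), with members divided at 5 RPF CPM and all tested transcripts for comparison. LOF/LOF embryos 1 and 3 lie above the wild-type embryos in RPF (0.20 and 0.22) and LOF/LOF embryo 2 lies below them (-0.08).

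The lean in RPF was seen in LOF/LOF embryos 1 and 3. The mean log2 RPF level of the 37 members, relative to the mean of the wild-type embryos, was -0.03, 0.05 and -0.03 in wild-type and 0.20, -0.08 and 0.22 in Rpl10a LOF/LOF embryos 1, 2 and 3. LOF/LOF embryo 2 thus lay below the wild-type embryos and the other Rpl10a LOF/LOF embryos above them. Of the 37 members, 15 had their highest RPF level in LOF/LOF embryo 1 and 13 in LOF/LOF embryo 3, or 40.5% and 35.1%, where 24.5% and 19.2% of all tested transcripts did, and 1 had it in LOF/LOF embryo 2. In RNA the corresponding numbers were 7, 5 and 2 for LOF/LOF embryos 1, 3 and 2, and the mean log2 levels were -0.10, 0.06 and 0.04 in wild-type and -0.03, 0.02 and -0.11 in Rpl10a LOF/LOF embryos 1, 3 and 2, so that the genotypes overlapped. LOF/LOF embryos 1 and 3 are also those with few Y-linked counts. They were also the lowest for visceral endoderm markers, at 3273 and 2321 RPF CPM against 4877 in LOF/LOF embryo 2 and 6445 or more in wild-type. Decidua and trophoblast markers summed to 342.2 and 161.7 RPF CPM in these embryos, against 92.5 in LOF/LOF embryo 2 and 305.4 in wild-type embryo 2. Endothelial markers did not follow these embryos together, with the highest sum in LOF/LOF embryo 3 (624.5 RPF CPM) and the lowest in LOF/LOF embryo 1 (463.9). With the Y-linked covariate the RPF lean turned, as given above, but under it the genotype term rests mostly on LOF/LOF embryo 2. Neither the part of the Y chromosome nor that of the cell type markers was tested.

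The called members fell on both sides of the promoter search, Rsad2 with an ISRE match and Tap1 without. The 11 tested members with a match had a median log2 change of 0.12 in RPF and -0.12 in RNA, with 0 and 1 called. The latter was Rsad2, which passed the filter through the Rpl10a LOF/LOF libraries alone. The 22 tested members whose windows had no match had 0.02 and -0.05, with 1 called in each layer. Ifnar1, Ifnar2 and Ifngr2, which lie within 174289 bp of each other on chromosome 16, and the Ifit and Ifitm clusters of chromosomes 19 and 7 likewise gave no called gene.

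Further genes of the pathway were counted from 3 lists of signaling and sensor genes, induced genes and antigen presentation genes that hold no member. Of 107 present in the table, 63 were tested. In RPF 0 were called (edgeR), against 2.19% of all tested transcripts, and 7 of 63 had an unadjusted p under 0.05, against 13.7%. Medians over the 63 genes were 0.02 in RPF, -0.03 in RNA and 0.14 in RPF/RNA, where 44 of 63 lay above 0, against 52% of all tested transcripts.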

How the data were processed

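RPF and RNA libraries came from the same 3 wild-type and 3 Rpl10a LOF/LOF embryos. The authors trimmed reads with cutadapt and UMI-tools, discarded reads aligning to rRNA, tRNA or snRNA, aligned the rest with Bowtie2 to GENCODE canonical transcripts of GRCm38/mm10, and removed PCR duplicates by molecular identifier. The deposited values are raw counts, of RPF A sites in the coding sequence without its first and last codons (20 in all), and of RNA reads on the whole transcript. Each count is thus close to 1 captured molecule. Symbols came from GENCODE M21, in which 21976 IDs matched exactly, 477 by another version and 14 not at all.

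Transcripts above 0.75 CPM in at least 3 RPF libraries were kept (12576), RPF and RNA were normalized separately by TMM, and an FDR under 0.1 was called, as in the study. Genotypes were compared with edgeR 4.0.16 (quasi-likelihood, Benjamini-Hochberg adjustment over all tested transcripts, R 4.3.3), and RPF/RNA by a genotype-by-library interaction term fitted to all 12 libraries. The authors used voom, limma and sva without stated settings, so limma 3.58.1, sva 3.50.0 and DESeq2 1.42.0 served as alternatives, with other filters and scaling, a Y-linked covariate, blocks and each embryo left out. The edgeR fit was tested on simulated counts. CPM per kb used GENCODE lengths, with the omitted codons taken off the coding sequence.

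The members and lists were chosen with earlier results of these data known. Named with values for each embryo were members past the FDR, members with an unadjusted p under 0.05 and no overlap in that layer, the 3 members per role with the highest wild-type RPF CPM, and members outside the filter. Other genes were named after their values were seen. Same-embryo RPF and RNA libraries deviated together (r = 0.181 to 0.396 across transcripts). RPF counts per member ran from 0 to 2348 per library, which limits the precision for weak genes. RNA calls among the further pathway genes are not reported here.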

Additional observations from a re-analysis of the deposited data

How the results depend on the processing

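Beside the main analysis, RPF and RNA were fitted in 14 alternatives and RPF/RNA in 15. Followed gene by gene, Tap1 in RPF and RNA, and Rsad2, Bst2, Trim25, Parp14 and B2m in RNA, kept their direction in every alternative that tested them. They were followed because their genotypes did not overlap in that layer, so leaving out 1 embryo could not turn their direction. The direction of the other members was not followed singly. The median change of the members ran from -0.06 (Y-linked covariate) to 0.18 in RPF, from -0.13 to -0.04 in RNA and from 0.03 to 0.24 in RPF/RNA. The RPF count of 1 called member became 0 with DESeq2 and with the Y-linked covariate, and ran from 0 to 3 when 1 embryo was left out (3 without LOF/LOF embryo 2, which were Tap1, Rnf213 and Rsad2, the last with its RPF direction set by the filter, where 11.5% of all transcripts were called). Shares of all transcripts called in RPF were 2.01% with DESeq2, 0.223% with the Y-linked covariate and 0.0318% to 1.52% without any other single embryo. The RNA count of 2 became 1 with DESeq2 and with limma-voom and sva (4.89% and 4.92% of all transcripts), 1 with the stricter filter, which removed Rsad2 before testing, 0 with the Y-linked covariate (0.732%), and 0 to 2 with 1 embryo left out (1.1% to 4.72%). The causes of the other changes were not tested. In RPF/RNA 0 members were called throughout. The log2 change of Tap1 ran from 0.93 to 1.35 in RPF and from 0.84 to 1.41 in RNA, past the threshold in 7 and 9 of 14 alternatives, and that of Rsad2 in RNA from 0.69 to 1.03, past it in 5 of the 13 that tested it.

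Replicate numbers did not pair embryos across genotypes: same-number correlations of deviations ran from -0.10 to 0.09. With a replicate block 1 member was called in RPF, 2 in RNA and 0 in RPF/RNA. With 3 embryos per genotype and 2 to 35 RPF counts per library for Tap1, Rsad2 and Psmb8, smaller changes of such weak members may have been missed, which was not tested.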

Other observations

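The machinery that attaches ISG15 to proteins was looked at after the values were seen. Uba7, its activating enzyme, was counted 23, 16 and 49 times in the wild-type RPF libraries and 46, 83 and 62 times in the Rpl10a LOF/LOF RPF libraries. As CPM these were 2.10, 1.87 and 5.11 against 6.71, 9.66 and 5.90, without overlap (log2 change 1.28 ± 0.34, FDR 0.11, edgeR), and in RNA the change was 1.06 ± 0.36 (FDR 0.17). Ube2l6, its conjugating enzyme, had 5.49, 5.38 and 8.97 RPF CPM against 9.77, 12.57 and 11.03, also without overlap (log2 change 0.75 ± 0.20, FDR 0.13), but 0.18 ± 0.24 in RNA. For Herc6, a ligase of this pathway, the RPF change was 0.25 ± 0.35. Of the 26 tested genes on the further list of induced genes, 3 lay above in RPF without overlap, where 9.92% of all tested transcripts did, and 0 were called. LOF/LOF embryo 2 was the highest embryo for Uba7 and Ube2l6 in RPF, unlike for Tap1, and wild-type embryo 3 was the highest of its group. Primitive red cell markers had the same highest embryo in each genotype, and their part in these values was not tested.

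Class II genes for antigen presentation, which mark professional antigen-presenting cells, were present at low level, and those named here were chosen after their values were seen. Of the 15 tested genes on the further antigen presentation list, 7 had fitted RPF changes above 0 and 8 below, with a median of -0.02, and 0 were called. H2-Ab1, counted 32 to 61 times per RPF library, had a log2 change of 0.00 ± 0.19 in RPF and -0.02 ± 0.16 in RNA. H2-Aa was counted 8, 16 and 9 times in wild-type and 9, 25 and 28 times in Rpl10a LOF/LOF RPF libraries, with a log2 change of 1.04 ± 0.40 (FDR 0.28). Cd74, the invariant chain, had a change of 0.61 ± 0.22 (FDR 0.25) and H2-Eb1 of 0.76 ± 0.33 (FDR 0.34), and the embryos overlapped in each of these genes. In RNA the log2 changes of H2-Aa, Cd74 and H2-Eb1 were 0.32 to 0.39, with FDR of 0.53 or more.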
